A study of Mus musculus with 6 samples.

Results

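The mouse HOX gene clusters were examined in primary mouse embryonic fibroblasts (MEFs) treated with erastin. A gene was counted as a member when its Ensembl mouse identifier in the deposited count table belongs to a protein-coding gene whose GENCODE M21 symbol is Hoxa, Hoxb, Hoxc or Hoxd followed by a number. The rule uses names only, and 39 of the 43346 genes in the table met it. The study holds 6 libraries of total RNA depleted of ribosomal RNA, sequenced on an Ion Proton instrument. The MEFs were of the C57BL/6 strain at passage 9, with no transgene or other genetic change named in the labels. Both groups were kept for 24 h with their agent: 3 libraries came from cells given DMSO, the solvent, and 3 from cells given 3 µM erastin. Erastin blocks the cystine-glutamate antiporter of the plasma membrane and so leads to ferroptosis, an iron-dependent form of cell death driven by lipid peroxidation. The labels name neither the embryonic stage nor the body region of the cells, and they do not say whether replicates were separate cultures, so p-values measure the spread between these libraries.

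HOX genes encode homeodomain transcription factors that give cells along the body axis and along the limbs their positional identity. In mammals they lie in 4 clusters, and the order of the genes along each cluster follows the order in which they are switched on, from the 3′ end (paralog 1, head side) to the 5′ end (paralog 13, tail side and limb tips). Genes of the same number in different clusters are paralogs. Fibroblasts in culture are known to keep the HOX pattern of the place they came from, held in part by Polycomb repression of the silent genes and Trithorax activity at the expressed ones.

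In GRCm38, the mm10 build named in the submitters' processing notes, the 11 HOXA members span chr6:52155590-52260880 on the minus strand. The 10 HOXB members span chr11:96194316-96368256, the 9 HOXC members span chr15:102921103-103036852 and the 9 HOXD members span chr2:74668310-74765142, all on the plus strand. Libraries held 13333911 to 20509970 counts in genes, of which 3951 to 5579 counts fell on HOX members, or 0.0253% to 0.0320%. The defining fibroblast markers Col1a1, Col1a2, Pdgfra and Thy1 were present in every library, whereas all 4 pluripotency markers stayed under 1 CPM (the count scaled to the library total with TMM factors) and 6 of 7 epithelial markers did so too.

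In DMSO, HOX transcripts came from all 4 clusters, and the strongest were Hoxb9, Hoxd13 and Hoxc8. Levels of different genes are compared per length, as CPM per kilobase of exon. Hoxb9, which with the other paralogs of its number patterns the thoracic ribs, measured 21.2, 19.1 and 19.9 CPM per kb in the 3 DMSO libraries. Hoxd13, a gene of digit and genital tubercle formation, measured 14.0, 13.1 and 11.6 CPM per kb. Hoxc8, which acts in the thoracic skeleton and forelimb-level motor neurons, measured 7.87, 6.75 and 8.38 CPM per kb. These 3 genes had non-overlapping ranges. Hoxd8, at 7.23 ± 0.822 CPM per kb (SD, n = 3), and Hoxc6, at 7.15 ± 0.790, overlapped with Hoxc8 and with each other. Below Hoxc6 the levels ran down with few steps: of the 38 pairs of neighbours in the order of DMSO levels, 34 had overlapping ranges. The 4 breaks fell between Hoxb9 and Hoxd13, Hoxd13 and Hoxc8, Hoxc6 and Hoxa10, and Hoxc13 and Hoxb13. In all, 28 of 39 members reached 1 CPM per kb on average. The length used matters for the scale of some genes: with the longest transcript in place of all exons Hoxc6 stood at 10.9 CPM per kb and Hoxc8 at 9.77, which turns their order.

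**Figure D1:**
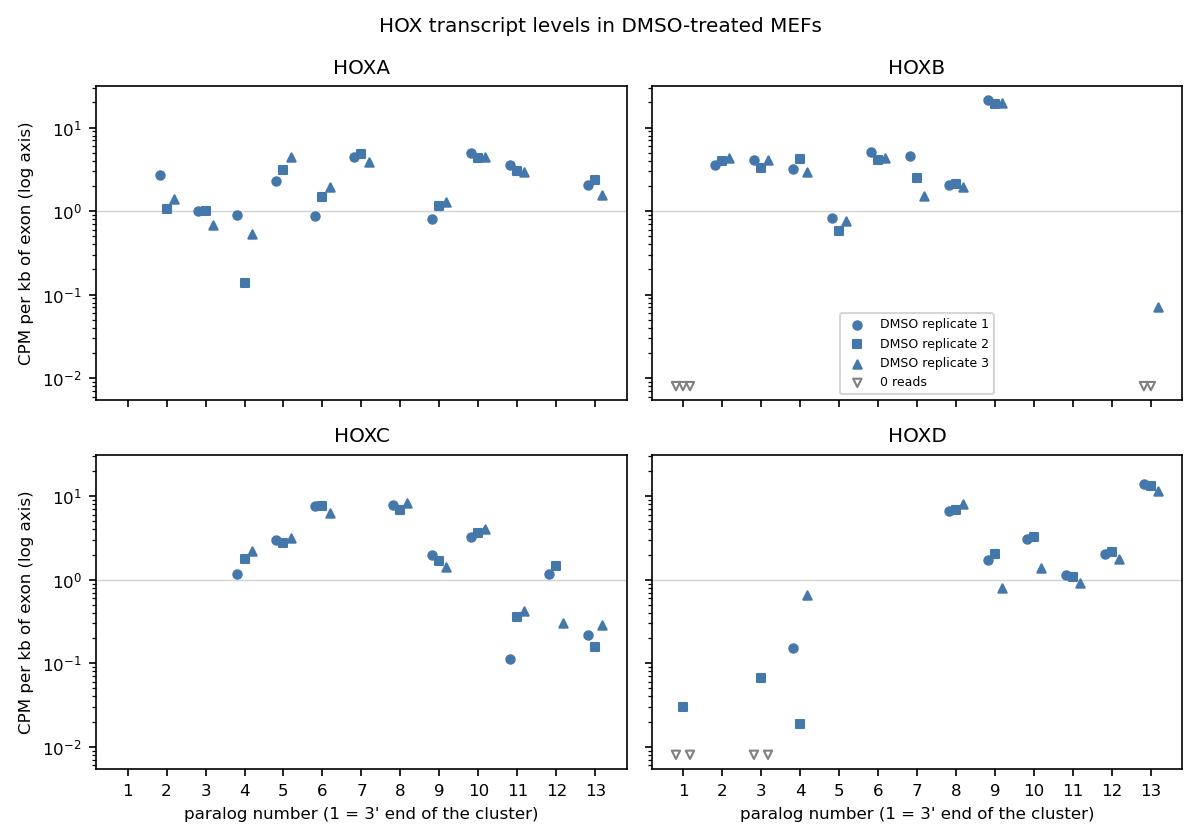
DMSO level of the HOX members described, in CPM per kb of exon (log axis) against its paralog number, with 1 panel per cluster and 1 point per library; open triangles at the foot mark libraries with 0 reads. HOXD is low from paralog 1 to 4 and high at 8 and 13, HOXB peaks at paralog 9, and HOXC fades beyond paralog 10.

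The clusters differed in which of their genes were on. HOXA was expressed along most of its length, with 9 of 11 members at 1 CPM per kb or more. Hoxa3 and Hoxa4 were below at 0.897 and 0.526, and no member was above 4.56, the level of Hoxa10. The place of Hoxa3 depends on the length used. It ranked 30 among the HOX members with all exons and 19 with the longest transcript. HOXB was expressed from Hoxb2 to Hoxb9, with Hoxb5 the lowest of these at 0.715 ± 0.123 CPM per kb, whereas its 2 end genes were almost without reads. Hoxb1 had 0 reads in all 3 DMSO libraries, where 3 counts, the limit that a count of 0 allows, correspond to 0.166 to 0.234 CPM (counting error only), and Hoxb13 had reads in 1 of the 3. In HOXC the levels were highest at Hoxc6 and Hoxc8, Hoxc10 stood at 3.66 ± 0.416 CPM per kb, and the 5′ genes Hoxc11, Hoxc12 and Hoxc13 were at 0.297, 0.975 and 0.219. HOXD was low on its 3′ side, with Hoxd1 at 0.00992, Hoxd3 at 0.0220 and Hoxd4 at 0.278 CPM per kb. Hoxd4 had 6, 1 and 25 reads in the 3 DMSO libraries. From Hoxd8 on, every HOXD member was at 1 CPM per kb or more, and the last gene of the cluster, Hoxd13, was its highest. Paralogs 11 and 13, which in HOXA and HOXD shape the forearm and the digits, were present in both clusters. Hoxd3 and Hoxd4 share 62.3% and 52.3% of their exon bases with other annotated genes on the same strand, so how reads were divided between them is uncertain.

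With erastin, members of all 4 HOX clusters were lower, and 1 member was higher. Of the 35 members with enough reads to test, 15 were lower and 1, Hoxb9, was higher at an adjusted p under 0.05 (edgeR quasi-likelihood test, Benjamini-Hochberg adjustment over 14000 genes). That is 42.9% lower and 2.86% higher, where 21.5% of all genes tested were lower and 21.6% higher. Among the 10947 genes whose mean level lay in the range of the tested members, 0.484 to 63.2 CPM, 19.1% were lower and 18.3% higher. Of the members, 7 were lower by at least 2-fold, or 20.0%, against 7.16% of all genes, and no called member was higher by that much. The median log2 fold change over the 35 members was -0.51, beside -0.0014 over all genes. In 18 of the 35 (51.4%) the DMSO and erastin libraries did not overlap, close to the 52.5% of all genes, and these 18 include all 16 that passed. The count of lower members depended on single libraries: it was 8 without DMSO replicate 1, 9 without DMSO replicate 2 and 6 without erastin replicate 1, and the count lower by at least 2-fold was 4 without each of these. Over all genes, 2686, 2568 and 2400 were lower in those 3 fits, against 3004 of 14000 with all 6 libraries. The 42.9% of members lower with all libraries, against 21.5% of all genes, was therefore not kept in those fits. The members' median log2 fold change stayed between -0.594 and -0.400 over the 6 fits that left out 1 library. Hoxb9, Hoxa10, Hoxc5, Hoxc8, Hoxc10 and Hoxd13 passed the test in all 6 of those fits and in the other 10 alternative fits, while the remaining 10 called members lost their call in at least 1 and kept their direction in all. Fibroblast markers moved with the HOX genes: 10 of 12 were lower, their median log2 fold change was -0.71, and their summed level went from 36418 to 39562 CPM in DMSO to 26025 to 27498 CPM in erastin. Their part in the HOX result was not tested, and in bulk RNA fewer cells of a type and less RNA per cell cannot be told apart.

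**Figure D2:**
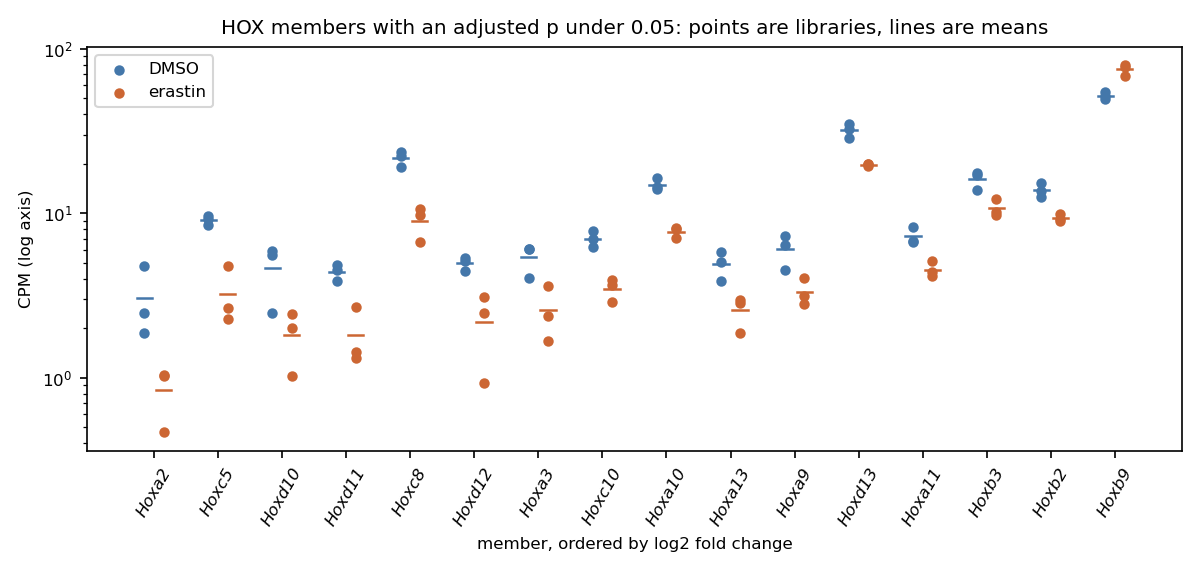
CPM (log axis) of the 16 HOX members with an adjusted p under 0.05, in the order of their log2 fold change; points are libraries and short lines are group means. In each gene the 3 DMSO and 3 erastin libraries do not overlap, and Hoxb9 is the one gene that is higher with erastin.

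Hoxb9, at chr11:96271457-96276595, was the strongest HOX gene before treatment and moved further up. Its level was 54.6, 49.2 and 51.3 CPM in DMSO and 79.2, 76.9 and 68.2 CPM in erastin. Every erastin library lay above every DMSO library, and the log2 fold change was 0.53 (SE 0.09, adjusted p = 0.000308), a 1.45-fold higher level. Hoxb9 made up 15.9% to 17.0% of all HOX member CPM in DMSO and 27.5% to 31.3% in erastin. None of its exon bases overlaps another annotated gene. The other paralogs of number 9 gave different values: Hoxa9 was lower, Hoxc9 had a log2 fold change of -0.40 (SE 0.35, adjusted p = 0.373), and Hoxd9 one of 0.69 (SE 0.37, adjusted p = 0.153), with libraries at 3.70, 4.32 and 1.71 CPM in DMSO and 3.54, 6.35 and 6.01 CPM in erastin. The differences among the paralogs were not tested.

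The 2 HOXB members that fell lie near the 3′ end of that cluster and are genes of hindbrain segment identity. Hoxb2 measured 12.5, 13.7 and 15.3 CPM in DMSO and 9.17, 9.94 and 8.97 CPM in erastin, a log2 fold change of -0.56 (SE 0.18, adjusted p = 0.0184). Hoxb3 measured 17.5, 13.8 and 17.1 CPM in DMSO and 10.2, 12.2 and 9.75 CPM in erastin, a log2 fold change of -0.59 (SE 0.18, adjusted p = 0.0145). Neither gene had overlapping groups, but neither call held without each library: adjusted p was 0.0536 for Hoxb2 without DMSO replicate 3, 0.0603 without erastin replicate 1 and 0.0511 with a GC and length offset and replicate block, and 0.0548 for Hoxb3 without DMSO replicate 1 and 0.0578 without erastin replicate 1. The noncoding gene Hoxb3os overlaps 52.9% of the Hoxb3 exon bases and 27.3% of those of Hoxb2 on the other strand, and whether the counting used strand is not given in the sources used here. Between them and Hoxb9, the 5 genes Hoxb4 to Hoxb8 did not pass the test, with log2 fold changes from -0.51 for Hoxb8 to 0.39 for Hoxb4. Hoxb6, a gene of the trunk, stood at 10.0, 7.93 and 8.56 CPM in DMSO and 6.47, 8.44 and 7.16 CPM in erastin, with overlapping groups. Summed over HOXB, the libraries held 107 to 117 CPM in DMSO and 117 to 130 CPM in erastin, a ratio of means of 1.12. Without Hoxb9 the same sum went from 57.3 to 62.8 CPM in DMSO to 47.6 to 52.9 CPM in erastin, a ratio of 0.84.

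HOXA fell at both ends, and all 4 of its 5′ genes were lower. Hoxa10, which acts in the lumbar skeleton, the limb and the uterus, lies at chr6:52231197-52240854 and had the highest mean per kb of exon in the cluster, with a DMSO range that overlapped that of Hoxa7. With the longest transcript as the length the order turns, to 5.82 CPM per kb for Hoxa10 and 6.20 for Hoxa7. Hoxa10 measured 16.4, 14.0 and 14.4 CPM in DMSO and 7.03, 8.14 and 8.04 CPM in erastin, with a log2 fold change of -0.95 (SE 0.18, adjusted p = 0.000643). Hoxa9, known for its role in blood progenitors as well as in the skeleton, measured 4.53, 6.43 and 7.24 CPM in DMSO and 4.05, 2.81 and 3.16 CPM in erastin (log2 fold change -0.86, SE 0.30, adjusted p = 0.0341). Hoxa11, a gene of the forearm and lower leg, measured 8.24, 6.82 and 6.69 CPM in DMSO and 4.38, 4.13 and 5.13 CPM in erastin (log2 fold change -0.67, SE 0.25, adjusted p = 0.0436). These 3 genes had no overlap between the groups, with the gap smallest for Hoxa9. Hoxa13, needed for digits and the urogenital tract, measured 5.06, 5.82 and 3.89 CPM in DMSO and 2.84, 2.99 and 1.87 CPM in erastin (log2 fold change -0.94, SE 0.34, adjusted p = 0.0366). Summed over the 4 genes, the DMSO libraries held 34.2, 33.0 and 32.2 CPM and the erastin libraries 18.3, 18.1 and 18.2 CPM, with the erastin libraries within 1 CPM of each other. Of the 4, Hoxa10 alone kept its call whichever library was left out. Hoxa9 had an adjusted p of 0.0986 without DMSO replicate 2, 0.100 without DMSO replicate 3, 0.100 without erastin replicate 2 and 0.0732 without erastin replicate 3. For Hoxa11 it was 0.138 and 0.0728 without DMSO replicates 1 and 2, and 0.115 and 0.111 without erastin replicates 1 and 2. For Hoxa13 it was 0.0818 and 0.146 without DMSO replicates 1 and 2, and 0.0709 and 0.107 without erastin replicates 1 and 3. With the replicate number as a block, the adjusted p was 0.0546 for Hoxa9 and 0.0625 for Hoxa11. Hoxa11 passed in 5 of the 16 alternative fits: with all 6 libraries kept, its adjusted p was also 0.0526 with DESeq2, 0.0701 with total counts only, 0.0724 with the GC and length offset, 0.0948 with that offset and the block, 0.0876 after thinning and 0.102 with no filter on low counts. Hoxa9 had 0.0506 with total counts only, and Hoxa13 had 0.0522 with no filter and 0.0530 with the offset and block. Hoxa11 has 35.0% of its exon bases under the opposite-strand transcript Hoxa11os, which was itself low, at 2.22 to 3.35 CPM in DMSO and 0.299 to 1.77 CPM in erastin.

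The promoters of 3 of these HOXA genes and of Hoxd13, the gene at the 5′ end of HOXD that also fell, are shown as examples to set their base composition side by side. Each is the 250 bases upstream of the RefSeq start, 5′ to 3′ on the strand of the gene, from RefSeq on GRCm38.p6. Capitals mark matches to CCAAT or GGGCGG on either strand, and to TATAAA on the forward strand; neighbouring matches run together. The windows are chr6:52240855-52241104 (Hoxa10), chr6:52245811-52246060 (Hoxa11), chr6:52260881-52261130 (Hoxa13), all on the minus strand, and chr2:74667975-74668224 (Hoxd13) on the plus strand. The RefSeq start of Hoxd13 differs from its GENCODE M21 start by 85 bases, and the other 3 starts are the same.
Hoxa10: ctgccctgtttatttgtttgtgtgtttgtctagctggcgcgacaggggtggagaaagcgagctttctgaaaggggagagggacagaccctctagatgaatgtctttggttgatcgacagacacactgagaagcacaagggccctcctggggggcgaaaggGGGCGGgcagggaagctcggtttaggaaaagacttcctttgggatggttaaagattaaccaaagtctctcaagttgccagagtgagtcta
Hoxa11: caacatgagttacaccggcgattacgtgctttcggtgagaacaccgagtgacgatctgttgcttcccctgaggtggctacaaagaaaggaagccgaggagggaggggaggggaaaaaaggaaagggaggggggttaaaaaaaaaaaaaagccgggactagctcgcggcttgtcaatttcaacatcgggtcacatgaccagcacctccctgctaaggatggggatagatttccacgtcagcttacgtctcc
Hoxa13: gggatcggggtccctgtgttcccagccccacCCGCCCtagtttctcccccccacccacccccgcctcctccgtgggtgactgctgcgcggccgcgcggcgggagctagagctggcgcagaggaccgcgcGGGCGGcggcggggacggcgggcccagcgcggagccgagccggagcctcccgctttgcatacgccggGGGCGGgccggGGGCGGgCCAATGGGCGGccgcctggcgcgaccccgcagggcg
Hoxd13: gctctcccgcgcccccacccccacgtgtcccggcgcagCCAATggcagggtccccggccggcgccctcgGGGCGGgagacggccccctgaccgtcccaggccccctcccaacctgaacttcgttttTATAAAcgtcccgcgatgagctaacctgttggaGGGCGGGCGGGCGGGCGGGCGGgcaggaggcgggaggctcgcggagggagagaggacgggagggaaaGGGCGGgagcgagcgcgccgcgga
The 4 windows have little in common in these letters. Hoxa13 is 80% G and C and Hoxd13 74.4%, each with GGGCGG repeated (5 and 7 matches), whereas Hoxa10 is 51.6% G and C with 1 match and Hoxa11 is 52% with no match to any motif searched. Of the 39 members, 22 had a window in the RefSeq table, 24 windows in all. Their median G and C content was 58.6%, beside 52.4% over all 32851 promoter windows of that length. CCAAT was found in 58.3% of the HOX windows and 33.8% of all windows, GGGCGG in 41.7% and 32.7%, and TATAAA in 4.17% and 7.59%. TGATNNAT, the core of joint PBX and HOX sites, was found on either strand in 16.7% and 7.68%, and TGACAG, the MEIS core, in 8.33% and 15.9%. Of the 12 windows of members that fell, 6 held CCAAT, 5 GGGCGG, 2 TGATNNAT, 2 TGACAG and 1 TATAAA. A match describes the letters only.

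At the 3′ end of HOXA, Hoxa2 and Hoxa3 were lower. Hoxa2, the selector gene of the second pharyngeal arch, measured 4.76, 1.88 and 2.49 CPM in DMSO and 0.466, 1.02 and 1.04 CPM in erastin. Its log2 fold change of -1.85 (SE 0.54, adjusted p = 0.0127) was the lowest among the called members, and it rested on a DMSO group in which replicate 1 stood above the others: without that library it was -1.38 with an adjusted p of 0.104, and without erastin replicate 1 the adjusted p was 0.0616. Hoxa3, needed for the thymus and parathyroid, measured 6.04, 6.10 and 4.05 CPM in DMSO and 1.68, 2.39 and 3.63 CPM in erastin (log2 fold change -1.08, SE 0.36, adjusted p = 0.0252). The groups of Hoxa3 came close without overlap, and its adjusted p was 0.0803 and 0.0952 without DMSO replicates 1 and 2, and 0.110 and 0.0642 without erastin replicates 1 and 2. On the same strand, the annotated gene Gm28308 overlaps 15.0% of the Hoxa2 exon bases. Of the Hoxa3 exon bases, 27.1% overlap other annotated genes on either strand and 8.01% on the same strand. In the middle of the cluster no gene passed. Hoxa7, a trunk gene, measured 12.8, 14.0 and 11.1 CPM in DMSO and 11.5, 10.1 and 9.02 CPM in erastin, a log2 fold change of -0.30 (SE 0.19, adjusted p = 0.208). Hoxa5, a gene of lung and lower neck, measured 4.31, 5.82 and 8.25 CPM in DMSO and 3.72, 4.07 and 3.94 CPM in erastin, without overlap but with an adjusted p of 0.0986, which became 0.0448 without DMSO replicate 1. Hoxa4 and Hoxa6 had log2 fold changes of 1.31 and -0.06, and their 95% intervals ran from -0.18 to 2.79 and from -1.46 to 1.34. Summed over all 11 HOXA members, the 3 DMSO libraries held 66.1, 66.4 and 65.2 CPM and the 3 erastin libraries 40.8, 43.2 and 42.3 CPM, a ratio of means of 0.64.

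**Figure D3:**
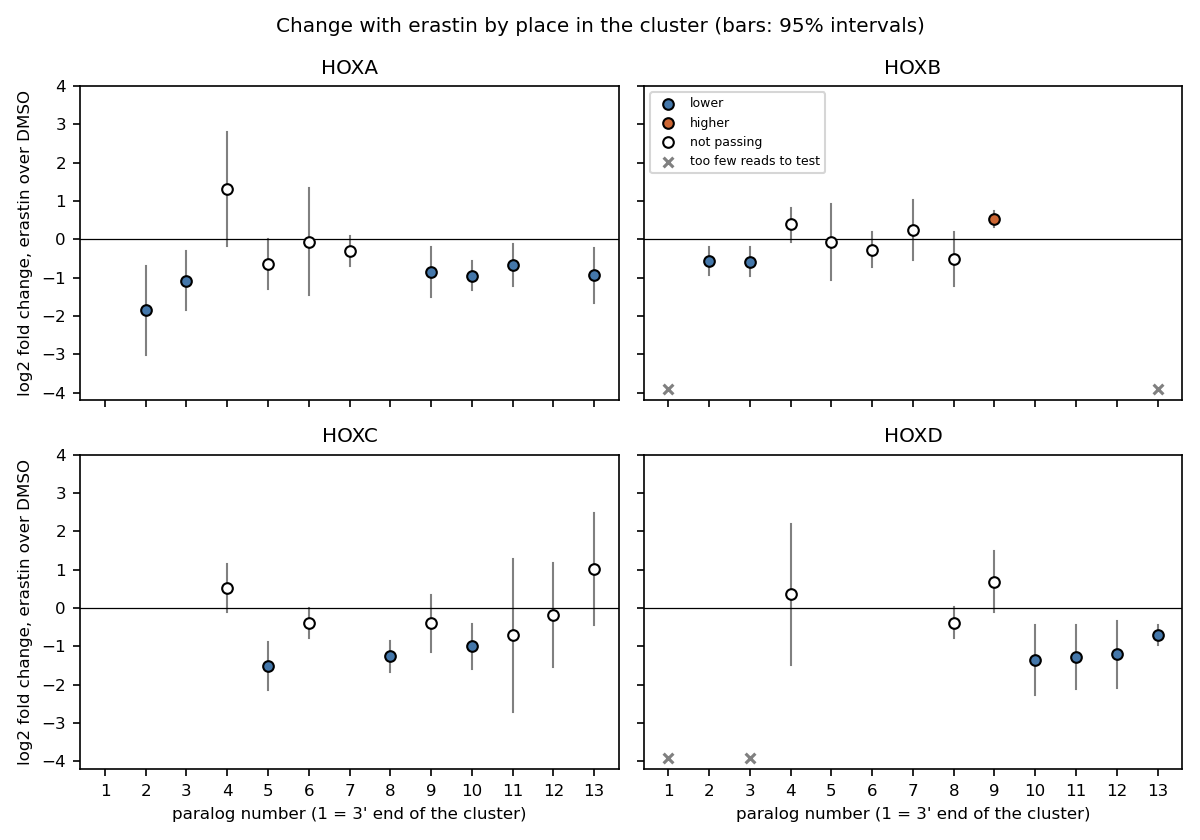
Log2 fold change of the tested HOX members described (erastin over DMSO) with its 95% interval, against the paralog number, in 1 panel per cluster; blue points are lower and orange points higher at an adjusted p under 0.05, open points did not pass, and crosses mark the 4 members with too few reads to test. Of paralogs 9 to 13, 4 of 4 HOXA members and 4 of 5 HOXD members are lower. In HOXC 1 of 5 is lower, and in HOXB the 1 tested member, Hoxb9, is higher. Of all genes tested, 21.5% were lower and 21.6% higher. In HOXA, Hoxa2 and Hoxa3 near the 3′ end are lower too.

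In HOXC, 3 of 9 members fell, and they include the steepest changes that held in every fit. Hoxc8, at chr15:102990607-102994111, measured 22.3, 19.1 and 23.7 CPM in DMSO and 10.6, 6.70 and 9.75 CPM in erastin. Its highest erastin library lay well under its lowest DMSO library, with a log2 fold change of -1.26 (SE 0.19, adjusted p = 7.51e-05). Hoxc5, a gene of neck-level identity, measured 9.29, 8.54 and 9.65 CPM in DMSO and 2.65, 4.79 and 2.28 CPM in erastin (log2 fold change -1.51, SE 0.29, adjusted p = 0.000841). Hoxc10, known from hindlimb-level motor neurons, measured 6.20, 6.98 and 7.78 CPM in DMSO and 3.91, 3.65 and 2.90 CPM in erastin (log2 fold change -1.0, SE 0.27, adjusted p = 0.00825). Before rounding Hoxc10 fell just short of a 2-fold change, so it is not among the 7 members lower by at least 2-fold. An annotated Hoxc5 transcript starts near Hoxc10: the M21 gene spans chr15:102967443-103017429, and 5.37% of the Hoxc5 exon bases and 8.70% of the Hoxc10 exon bases are common to both, so a part of their reads cannot be assigned to one of them. Hoxc6, a thoracic gene whose DMSO range per length overlapped that of Hoxc8, measured 18.3, 18.3 and 15.0 CPM in DMSO and 12.5, 10.7 and 16.2 CPM in erastin. Its groups overlapped through erastin replicate 3, with a log2 fold change of -0.39 and an adjusted p of 0.0996, and without that library these were -0.57 and 0.0259. Hoxc4, next to Hoxc5 at the 3′ end, had a log2 fold change of 0.52 (SE 0.29, adjusted p = 0.162). Hoxc11, Hoxc12 and Hoxc13 were at 1.98 CPM or less in every library, with SEs of 0.64 to 0.93, so a change of 2-fold was not detectable at this depth. The summed HOXC level was 65.9, 64.3 and 67.2 CPM in DMSO and 40.1, 37.6 and 44.5 CPM in erastin, a ratio of means of 0.62.

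In HOXD, Hoxd10 to Hoxd13 were lower, 4 neighbours that act in the limb and the posterior trunk. Hoxd13, at chr2:74668310-74671599, measured 34.8, 32.6 and 28.8 CPM in DMSO and 19.9, 20.0 and 19.4 CPM in erastin, with a log2 fold change of -0.70 (SE 0.12, adjusted p = 0.000343). Its erastin libraries lay within 1 CPM of each other, all under the lowest DMSO library. Hoxd12 measured 5.14, 5.38 and 4.44 CPM in DMSO and 2.47, 3.11 and 0.933 CPM in erastin (log2 fold change -1.20, SE 0.41, adjusted p = 0.0278). Hoxd11, which shapes the forearm together with Hoxa11, measured 4.84, 4.49 and 3.89 CPM in DMSO and 1.44, 1.32 and 2.70 CPM in erastin (log2 fold change -1.27, SE 0.39, adjusted p = 0.0167). Both had separate groups, with 1 erastin library apart from the other two in each. Hoxd10, a gene of lumbar motor neurons, measured 5.59, 5.93 and 2.49 CPM in DMSO and 2.00, 1.02 and 2.44 CPM in erastin (log2 fold change -1.35, SE 0.43, adjusted p = 0.0208). DMSO replicate 3 of Hoxd10 lay just above erastin replicate 3, so its groups nearly touched. On the same strand, the annotated gene Gm28309 overlaps 10.8% of the Hoxd11 exon bases and 5.73% of those of Hoxd10. Of Hoxd10 to Hoxd13, Hoxd13 alone kept its call whichever library was left out. The adjusted p of Hoxd12 was 0.0683 and 0.0860 without DMSO replicates 1 and 2, and 0.0592 and 0.0728 without erastin replicates 1 and 3. That of Hoxd11 was 0.0537 without DMSO replicate 1, and 0.0707 and 0.0587 without erastin replicates 1 and 2. That of Hoxd10 was 0.0771 and 0.104 without DMSO replicates 1 and 2, and 0.0538 and 0.0741 without erastin replicates 1 and 2. Hoxd8, the second of the cluster in level, measured 18.2, 18.9 and 22.4 CPM in DMSO and 15.0, 19.6 and 11.1 CPM in erastin. Its groups overlapped through erastin replicate 2, with a log2 fold change of -0.38 and an adjusted p of 0.127, and without that library these were -0.60 and 0.0273. Hoxd4 had a log2 fold change of 0.36 (SE 0.86). The 4 members that could not be tested, Hoxb1, Hoxb13, Hoxd1 and Hoxd3, had at most 6 reads in each library. The summed HOXD level was 72.7, 72.1 and 65.7 CPM in DMSO and 45.7, 52.9 and 43.5 CPM in erastin, a ratio of means of 0.67.

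Set out by place rather than by cluster, 4 of 5 tested members of paralogs 1 to 3 were lower, 2 of 15 of paralogs 4 to 8, and 9 of 15 of paralogs 9 to 13, where Hoxb9 was higher. Beside these counts stand the 21.5% lower and 21.6% higher of all genes tested. The median log2 fold changes of the 3 groups of paralogs were -0.59, -0.27 and -0.71. The difference between the places was not tested. Over all 39 members the summed level was 313 ± 7.96 CPM in DMSO and 255 ± 7.98 CPM in erastin (SD, n = 3 each), a ratio of 0.81, and without Hoxb9 it was 261 ± 5.72 and 180 ± 6.22 CPM, a ratio of 0.69. Sequence shared between HOX transcripts could divide reads between genes. The longest exact run shared by transcripts of members in different clusters was 52 bases, and within a cluster 2 of 172 pairs shared over 100, Hoxd3 with Hoxd4 (388 bases) and Hoxc5 with Hoxc10 (168 bases).

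**Figure D4:**
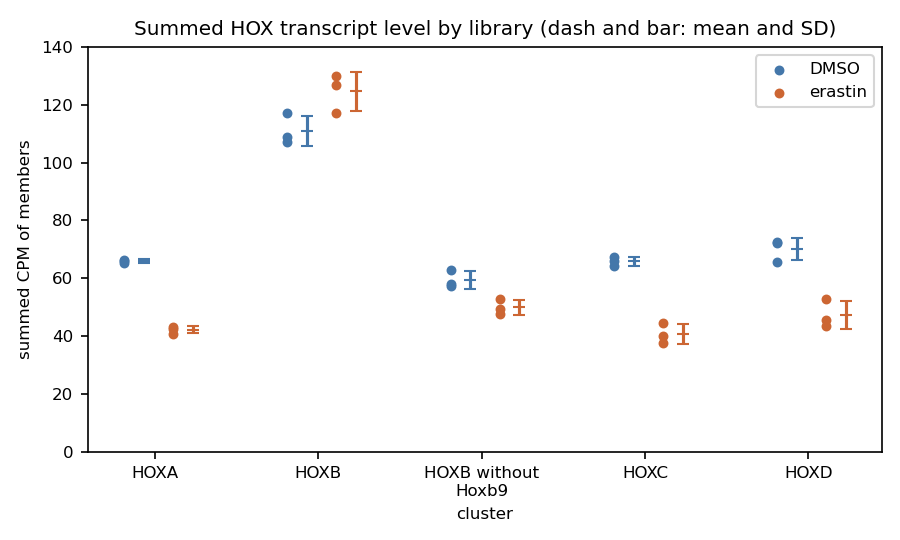
Summed CPM of the members of each HOX cluster, and of HOXB without Hoxb9; points are libraries, and the dash and bar give the mean and SD of 3 libraries. HOXA, HOXC and HOXD lie lower with erastin without overlap, HOXB lies at 107 to 117 CPM against 117 to 130 CPM, and HOXB without Hoxb9 is lower.

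HOX proteins bind DNA together with TALE homeodomain partners of the PBX, MEIS and PKNOX families, and all 9 of these genes were tested. Of them 3 were lower and 1 higher, and the median log2 fold change was -0.26. The counts of this and the following lists stand beside the 21.5% lower and 21.6% higher of all genes tested. Pknox2 measured 16.1, 15.4 and 12.2 CPM in DMSO and 4.66, 4.49 and 7.10 CPM in erastin (log2 fold change -1.43, adjusted p = 0.000137). The broadly expressed Pbx2 was lower by less, with a log2 fold change of -0.40, and Pknox1 was higher with 0.35. Meis1, Meis2 and Meis3 did not pass, with values from -0.26 to 0.04.

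Polycomb genes, whose products hold silent HOX genes off, went both ways, with 7 of 23 higher, 3 lower and a median of 0.16. Jarid2, an accessory subunit of Polycomb complex 2, measured 8.61, 11.6 and 10.6 CPM in DMSO and 29.3, 35.7 and 23.1 CPM in erastin (log2 fold change 1.51, adjusted p = 8.88e-06). Its partner Aebp2 was higher (0.91), as were the alternative methyltransferase Ezh1 (0.74), the ubiquitin ligase Rnf2 (0.65) and the complex 1 subunits Phc1 (0.61) and Phc3 (0.56). Ezh2, the main methyltransferase of dividing cells, was lower, at 14.7, 15.1 and 16.3 CPM in DMSO and 10.8, 8.38 and 9.59 CPM in erastin (log2 fold change -0.68, adjusted p = 0.00564). Phf19 (-1.95) and Cbx6 (-0.50) were lower too. The log2 fold changes of the core subunits Eed and Suz12 were 0.12 and 0.25, and neither passed the test. Among the Trithorax genes and histone H3K27 demethylases, 4 of 11 were higher and 1 lower, and the median was 0.14. Kdm6b, a demethylase that removes the Polycomb mark, measured 48.7, 56.8 and 52.5 CPM in DMSO and 100, 92.4 and 82.8 CPM in erastin (log2 fold change 0.80, adjusted p = 1.13e-05). Rbbp5 (0.59), Kdm6a (0.44) and Ash2l (0.31) were higher, and Men1, which encodes menin, was lower (-0.39).

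Retinoic acid switches on the 3′ HOX genes in the embryo, and genes of this route were mostly lower. Of 16 tested genes known to act upstream of HOX transcription, 9 were lower and 2 higher, and the median was -0.61. Rarb, a retinoic acid receptor that is itself a target of the pathway, measured 6.42, 9.98 and 5.76 CPM in DMSO and 0.978, 2.10 and 0.622 CPM in erastin (log2 fold change -2.61, adjusted p = 0.000168). The binding proteins Crabp1 (-1.82) and Crabp2 (-0.43), the synthesis enzyme Aldh1a2 (-1.76), the degrading enzyme Cyp26b1 (-1.74), the receptors Rxra (-0.80), Rara (-0.79) and Rarg (-0.29), and geminin, Gmnn (-1.17), were lower as well. Another retinoic acid synthesis enzyme went the other way: Aldh1a3 measured 19.6, 15.9 and 19.2 CPM in DMSO and 53.5, 55.1 and 44.3 CPM in erastin (log2 fold change 1.49, adjusted p = 3.56e-07). Ctcf, whose product marks domain borders within the HOX clusters, was higher (0.49).

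Transcripts inside and beside the clusters gave few calls. Of 16 HOX cluster noncoding genes in the table, 6 could be tested and 0 passed with edgeR, 1 had an unadjusted p under 0.05, and DESeq2 called 0. Their median was -0.84, and the 4 with the smallest p were Hoxb5os (-1.23), Hoxa11os (-1.19), Hoxd3os1 (-1.19) and Hoxb3os (0.83), all under 3.5 CPM in every library. Of the 7 tested genes that flank the clusters, 1 passed: Smug1, a DNA repair glycosylase beside HOXC, was higher (0.48, adjusted p = 0.0189). Skap2 and Hibadh, from the flanks of HOXA, were at -0.29 and -0.28 and were not called, Calcoco1 beside HOXC had 0.18, and Mtx2 and Lnpk beside HOXD had 0.05 and 0.22. The median of the flanking genes was 0.18.

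Genes reported in other work as HOX targets gave 7 lower and 1 higher of 13 tested, and a median of -0.71, where 21.5% of all genes tested were lower and 21.6% higher. The lower ones were Rarb and Aldh1a2, already given, Hand2 (-1.48), the ephrin receptors Epha7 (-1.01) and Epha4 (-0.43), the guidance receptor Robo2 (-0.94) and the integrin Itga8 (-0.71). Gdnf, a growth factor of the ureteric bud, measured 3.48, 5.21 and 4.36 CPM in DMSO and 17.7, 15.0 and 10.2 CPM in erastin (log2 fold change 1.71, adjusted p = 6.38e-05). Direct binding was not measured here.

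**Figure D5:**
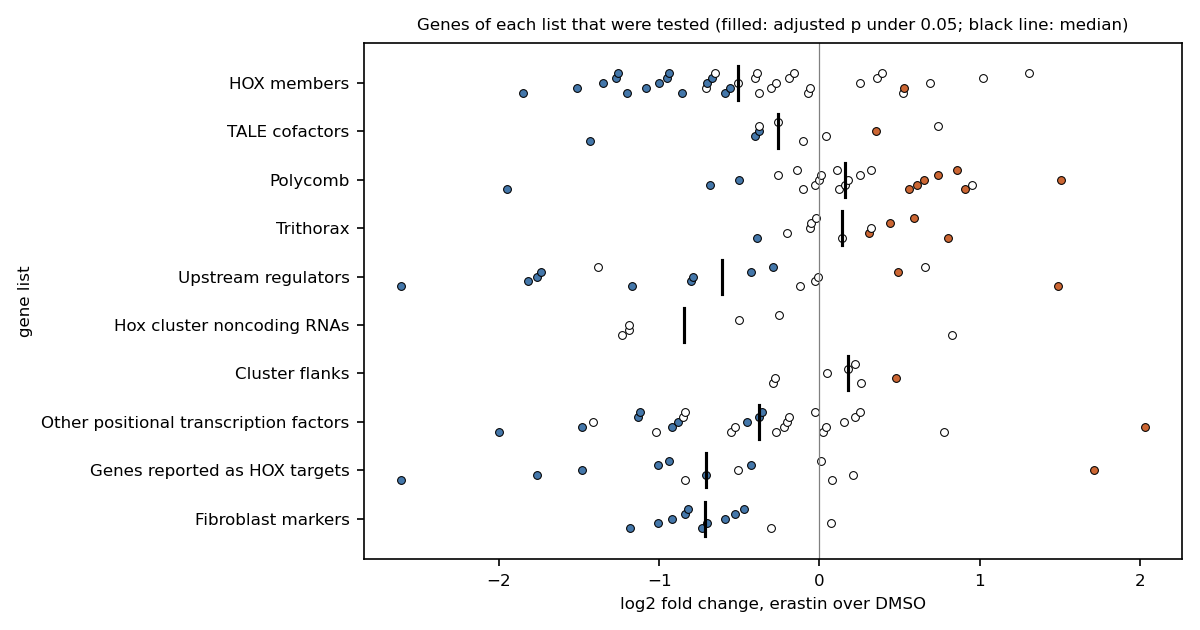
Log2 fold change (erastin over DMSO) of each tested gene in the HOX members and in 9 related lists; filled points have an adjusted p under 0.05 (blue lower, orange higher) and black lines are medians. The HOX members have a median of -0.51, the upstream regulators -0.61 and the fibroblast markers -0.71, while Polycomb and Trithorax genes have medians of 0.16 and 0.14.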

How the data were processed

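The authors deposited 1 table of raw read counts per gene for the 6 libraries, made from rRNA-depleted total RNA with an Ion Total RNA-seq kit after fragment selection, per the labels' protocols. HTSeq 0.9.1, SAMtools and the mm10 build are named in the submitters' processing notes; aligner, annotation release and strand setting are not given in the sources used here. Identifiers were matched to GENCODE M21 without version (98.0% of IDs; 31 of 39 HOX members have the same version). Libraries held 13333911 to 20509970 counts. CPM used TMM factors, and levels per kb divide by the union of exons. Genes passing filterByExpr (minimum count 10) were tested with edgeR 4.0.16 (R 4.3.3), treatment as the single term, and Benjamini-Hochberg adjustment. The members, the context lists and the tests were chosen with earlier results of these data known. Called genes and the 3 highest members of each cluster are given by library, and from each list the called genes and the 4 smallest p. Alternatives were other factors and filters, DESeq2 1.42.0, a replicate block, a GC and length offset, thinning and leaving out each library. The edgeR script was tested on simulated data. Protein sequences were not used here. Values of 1 HOX member and of some context genes are not reported here.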

Additional observations from a re-analysis of the deposited data

How the results depend on the processing

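The single higher member, Hoxb9, was called in all 16 alternative fits. The count of lower members was 12 to 15 in the alternatives that kept all 6 libraries and an adjusted p under 0.05. In those alternatives 2593 to 3377 of all genes were lower. At an adjusted p under 0.01 the count of lower members was 5, with 2 changed by at least 2-fold. The count over all genes at that threshold is not given here. Leaving out 1 library left 2400 to 2862 of all genes lower. The HOX members then had 6 to 13 lower, 4 to 8 changed by at least 2-fold, and a median of -0.594 to -0.400. The median was -0.567 with upper-quartile factors, -0.443 with total counts only, -0.559 with the replicate block and -0.432 with the GC and length offset. The summed HOXA change was -0.70 on the log2 scale with upper-quartile factors and -0.58 with total counts only. The cause of these shifts was not tested. The mean of its group was taken off each gene's log2 level, and the deviations of equally numbered DMSO and erastin libraries were correlated. These correlations were 0.060, 0.003 and -0.010, so the numbers were not taken as pairs. The replicate block left 13 members lower. No called member changed sign. Among uncalled members described, Hoxa6 was 0.09 with the offset, Hoxc12 0.11 with the offset, 0.29 with the offset and block and 0.02 after thinning. When a library was left out, the lowest and highest values were -0.73 and 0.39 for Hoxa6, -0.23 and 0.13 for Hoxb5, -0.05 and 0.73 for Hoxb7, -0.61 and 0.22 for Hoxc12, and -0.23 and 2.06 for Hoxd4. Depth limits the low members, whose SE reached 0.93.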

Other observations

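Other transcription factor genes that mark position in the limb, body wall or face were followed beside the HOX genes, and 9 of 27 tested were lower and 1 higher, with a median log2 fold change of -0.38. The lower genes include Msx1 (-2.0), Hand2 (-1.48), Foxd1 (-1.13), the forelimb gene Tbx5 (-1.12), Twist1 (-0.92), Prrx2 (-0.88), Prrx1 (-0.45) and Tbx15 (-0.36).

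Markers of other cell types differed in level and direction. In DMSO, Tubb3 stood at 56.0 to 80.9 CPM, Acta1 at 51.1 to 61.9 CPM and Des at 35.3 to 45.1 CPM. Under 1 CPM in every library were 4 of 6 neural, 4 of 6 muscle, 3 of 5 endothelial and 2 of 6 blood cell genes. The endothelial genes Kdr (1.38) and Tek (1.45) were higher, with Pecam1 and Cdh5 under 1 CPM in every library. Tubb3 (-0.74) was lower among the neural genes; of the 2 muscle genes tested, Des (0.72) was higher and Acta1 (-1.58) lower. Of 4 blood cell genes tested, edgeR and DESeq2 called 0, and 1 had an unadjusted p under 0.05. Krt18, the single epithelial gene tested, had a log2 fold change of -0.17; edgeR and DESeq2 called 0 and 0 had an unadjusted p under 0.05.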
